A study of Homo sapiens with 9 samples.

Results

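The clustered replication-dependent histone genes encode the core histones H2A, H2B, H3 and H4 and the linker histone H1. They were taken as the genes of the deposited count table whose GENCODE 29 symbol starts with HIST1H, HIST2H, HIST3H or HIST4H, that are typed as protein coding, and that have at least 10 counts in 1 or more libraries. Of the 71 annotated genes of these names, 59 met the rule, out of 58347 gene rows in all. The HIST1 cluster on chromosome 6 held 45 of them, HIST2 on chromosome 1 held 11, HIST3 on chromosome 1 held 3 and HIST4 held 0 of 1. By class there were 5 H1, 16 H2A, 17 H2B, 11 H3 and 10 H4 genes. The rule used the counts themselves, so membership is a description. Just inside it lay HIST1H2BB with a highest count of 10 and HIST1H3A with 12, and just outside lay HIST1H3I with 6 and HIST1H3G and HIST2H3PS2 with 5 each.

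RNA was sequenced from K562 cells, a human erythroleukaemia line, made into the K562-FIRE line by stable expression of dCas9, an MS2-Fkbp fusion and an SS18-Frb fusion, each under the EF1a promoter. Every library comes from cells with all of these parts, so no library shows K562 cells without them. Rapamycin joins Fkbp to Frb, which places SS18, a subunit of the BAF chromatin remodelling complex, at the DNA bound by dCas9 and its guide RNA. The study asked whether this activates HBG1. Each difference between rapamycin and DMSO below also holds any other effect of rapamycin on the cells, which was not tested. The groups were a guide to the HBG1 promoter with DMSO (n = 3), the same guide with 10 nM rapamycin for 24 h (n = 3), a non-targeting guide with rapamycin (n = 2) and a non-targeting guide with DMSO (n = 1). The labels do not say that replicates were separate cultures, so p-values measure the spread between these samples, which may be technical.

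Genes of this family are transcribed mainly in S phase, when new DNA has to be packed. As background, their mRNAs are unusual in ending not in a poly(A) tail but in a short stem-loop, which is bound by the protein SLBP and formed by cleavage with the U7 snRNP. A minority of their transcripts reads past the stem-loop and is polyadenylated. The libraries were made from RNA selected on poly-T beads, so the values below are of histone RNA that passed this selection, and RNA that did not pass it was not measured. In these bulk libraries, fewer cells of a type and less RNA per cell cannot be told apart.

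The histone stem-loop consensus was searched after the stop codon of each annotated coding transcript (GENCODE 29, GRCh38), and examples are shown because this element marks the family. A match was found for 30 of 59 genes. Of the others, 25 are annotated only as far as the stop codon, so their 3′ end lies outside the annotated exons, and 4 have annotated bases there without a match. The stem-loop core is in capitals, with up to 5 flanking bases.
HIST1H2AG: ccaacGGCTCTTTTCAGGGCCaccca
HIST2H2AA3: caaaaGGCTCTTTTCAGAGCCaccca
HIST1H3H: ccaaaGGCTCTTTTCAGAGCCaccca
HIST1H4E: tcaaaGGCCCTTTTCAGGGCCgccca
HIST1H4I: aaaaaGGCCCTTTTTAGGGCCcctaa
The core of HIST2H2AA3 and HIST1H3H was the most common, in 17 of the 30 genes. HIST1H2AG alone of the 30 had its core, which differs from the most common one by A13G, counted from 1 at the 5′ end of the core. HIST1H4E differs from it by T4C and A13G, and HIST1H4I by T4C, C10T and A13G. Annotated exon sequence runs on past the stem-loop by 200 bases or more in 19 of the 30 genes, by up to 1917 bases, in HIST3H2BB. It does so by 1761 bases in HIST1H2AG, 1729 in HIST2H2BE, 769 in HIST1H3H and 35 in HIST2H2AA3.

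The members took from 0.352% to 0.388% of all counts in a library. Levels are given as CPM, counts scaled to the library total and adjusted by the TMM method. The mean CPM over the 9 libraries was at least 100 for 7 genes, at least 10 for 29 and at least 1 for 44, and below 1 for 15. The 10 most abundant genes held 79.9% of the summed level, and HIST1H1C, HIST1H2BK and HIST1H4I alone held 51.5%. Per kilobase of annotated exon, HIST1H2BK (an H2B) led with 1873 CPM, followed by HIST1H1C (the linker histone H1.2) with 1184. Both are annotated only as far as the stop codon. This scale depends on how much of each 3′ end is annotated, and so compares genes only roughly. HIST2H2AA3 and HIST2H2AA4 (H2A) followed with 429 and 421, and HIST1H4I (H4) with 328. HIST1H3H, the most abundant H3 gene, stood at 107 CPM per kilobase, and HIST3H2A, the most abundant gene of HIST3, at 83.0. Each class held both abundant genes and genes below 1 CPM.

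Several rows are not independent. HIST2H2AA3 and HIST2H2AA4 are copies whose counts differed by at most 1.09% in any library, HIST2H3A and HIST2H3C differed by at most 2.24%, and HIST2H4A and HIST2H4B by at most 6.66%. HIST1H2AM and HIST1H3J overlap on the same strand, and 84.0% of the 100-base stretches of HIST1H2AM also lie in HIST1H3J. All 213 such stretches of HIST1H4K lie in HIST1H4J, as do 80.9% of those of HIST1H2AJ in HIST1H2AI. The span of HIST1H2BN holds HIST1H2AK on the opposite strand and HIST1H2AL on the same strand, and HIST2H3A and HIST2H3C overlap HIST2H4B and HIST2H4A on the opposite strand. How the counting treated reads of several genes or of either strand is not given in the sources used here, so each such set is best read as 1 signal.

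Libraries held 19797409 to 31619671 counts. HBG1, the gene under the targeting guide, was at 137 to 436 CPM with that guide and DMSO, 1533 to 2448 with it and rapamycin, and 8233 to 8944 in the 3 non-targeting libraries. All 11 erythroid markers chosen for K562, HBG1 and HBG2 among them, were detected. With the HBG1 guide their summed levels were 10966 to 17127 CPM under DMSO and 16054 to 23620 under rapamycin, which overlap. In that comparison 4 were called higher and 1 lower, 45.5% of the list, beside 6.80% of all genes tested. With the non-targeting guide the sums were 24775 CPM under DMSO and 27945 and 26970 under rapamycin. The part of these markers in the histone values was not tested. Replicate 1 of both HBG1 guide groups stood apart, with 14.99 to 16.8 chi-square units per gene from its group's other replicates, against 4.58 and 7.38 between replicates 2 and 3.

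Rapamycin was first compared with DMSO in the cells with the HBG1 guide. The summed level of the histone genes overlapped between the treatments, while single genes differed. The sum was 3663, 3785 and 3560 CPM in the DMSO libraries and 3591, 3792 and 3753 CPM in the rapamycin libraries. HIST1H2AG, HIST1H2AM and HIST1H3J rose and HIST1H2BK fell. These 4 calls of 59 genes are 6.78%, beside 6.80% of all 23675 genes tested (edgeR quasi-likelihood test, Benjamini-Hochberg adjusted p under 0.05), and so the share is that of the background. By direction the background was 2.75% higher and 4.05% lower. The log2 fold change was above 0 for 39 members and below 0 for 20, with a median of 0.13, beside 0.02 over all genes tested. At an unadjusted p under 0.05 there were 16 members, and 20.8% of all genes. All 59 passed the filter on low counts, some through a single library.

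**Figure D1:**
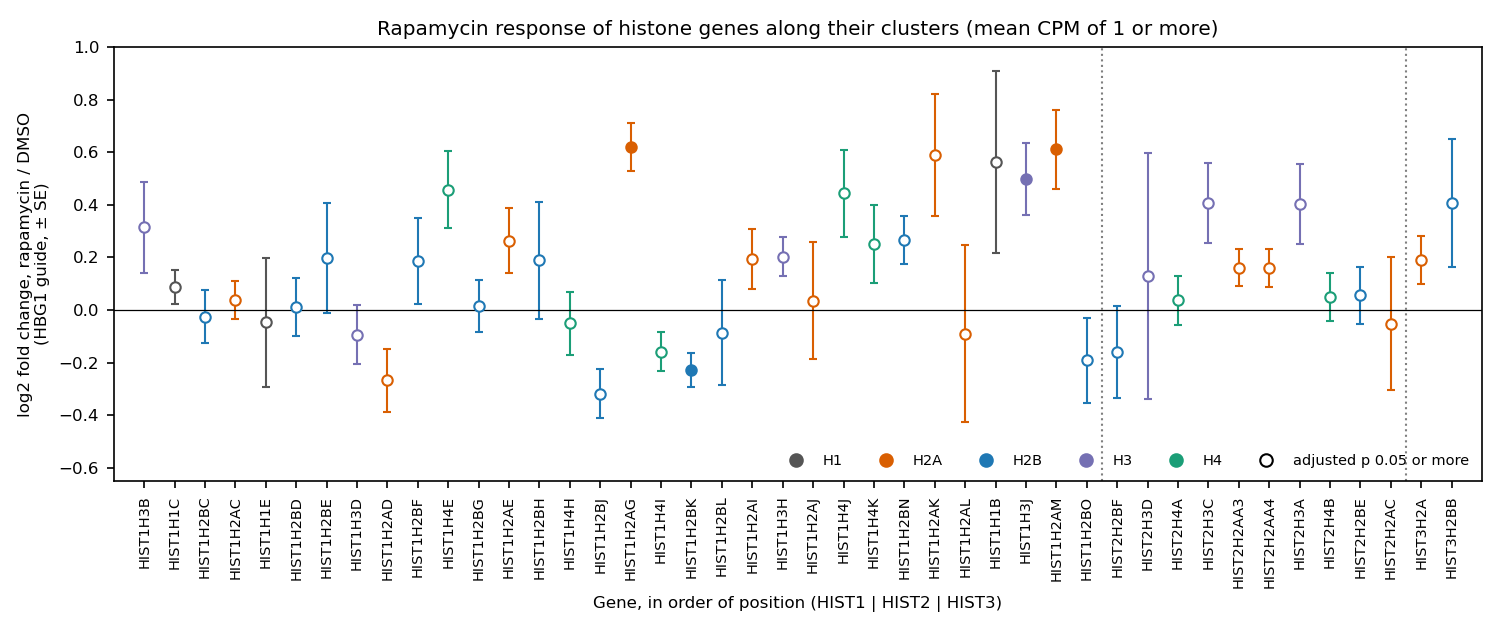
The log2 fold change between rapamycin and DMSO with the HBG1 guide (vertical axis, bars are the standard error of the fit) of the 44 histone genes with a mean of at least 1 CPM, in order of position, coloured by class. Filled points are the 4 genes with an adjusted p under 0.05, of which HIST1H2AG, HIST1H2AM and HIST1H3J lie above 0 and HIST1H2BK below.

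HIST1H2AG, an H2A gene on chromosome 6 (27133042 to 27135291, plus strand), had the clearest change. It was at 62.3, 76.0 and 67.9 CPM under DMSO and at 94.4, 108 and 114 CPM under rapamycin, so the groups did not overlap. Its log2 fold change was 0.62 (SE 0.09, adjusted p 0.000852, edgeR), a 1.54-fold rise, seen in 3 of 3 replicate pairs. With the non-targeting guide it stood at 74.5 CPM under DMSO and 116 and 111 CPM under rapamycin, the same pattern. The call held under all 17 alternative settings, with adjusted p up to 0.0108.

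HIST1H2BJ, an H2B gene (27125897 to 27132750, minus strand), starts 291 bases from HIST1H2AG and is read in the opposite direction. It went the other way, from 92.8, 95.7 and 104 CPM under DMSO to 69.0, 75.9 and 89.7 CPM under rapamycin, with no overlap. The log2 fold change of -0.32 (SE 0.09, edgeR) had an adjusted p of 0.05 after rounding, just above the threshold, and so it was not called. It passed under 5 of 17 alternatives, the replicate block and the DESeq2 test among them. With the non-targeting guide it was at 91.6 CPM under DMSO and 84.1 and 85.8 CPM under rapamycin, both below the DMSO library.

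HIST1H2BK (27146418 to 27146798, minus strand), the member with the highest level per kilobase, was at 771, 793 and 764 CPM under DMSO and 642, 676 and 670 CPM under rapamycin. The groups were separate and each was narrow. The log2 fold change was -0.23 (SE 0.06, adjusted p 0.0411, edgeR), lower in 3 of 3 pairs. In the non-targeting libraries it was at 766 CPM under DMSO and 651 and 690 CPM under rapamycin. Its call ended under 10 of 17 alternatives (adjusted p up to 0.171), which were scaling by library totals, fitting only the 6 libraries compared, and leaving out any 1 library but the non-targeting DMSO one.

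HIST1H2AM (27892757 to 27893149, minus strand), a second H2A gene, was at 9.04, 9.84 and 8.61 CPM under DMSO and 11.6, 16.3 and 14.1 CPM under rapamycin, again without overlap. Its log2 fold change was 0.61 (SE 0.15, adjusted p 0.0218, edgeR). HIST1H3J (27890382 to 27893106), the H3 gene that overlaps it, was at 10.9, 11.0 and 10.1 CPM and then at 12.5, 16.9 and 15.8 CPM, a log2 difference of 0.50 (SE 0.14, adjusted p 0.0391, edgeR). In the non-targeting libraries HIST1H2AM was at 10.1 CPM under DMSO and 10.8 and 12.7 CPM under rapamycin. Leaving out HBG1 guide DMSO replicate 2 or 3 or rapamycin replicate 2 or 3 ended the call of HIST1H2AM (adjusted p 0.0556 to 0.0978), and 8 of 17 alternatives ended that of HIST1H3J (up to 0.143), which were these 4, leaving out HBG1 guide DMSO replicate 1 or either non-targeting rapamycin library, and fitting only the 6 libraries compared.

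**Figure D2:**
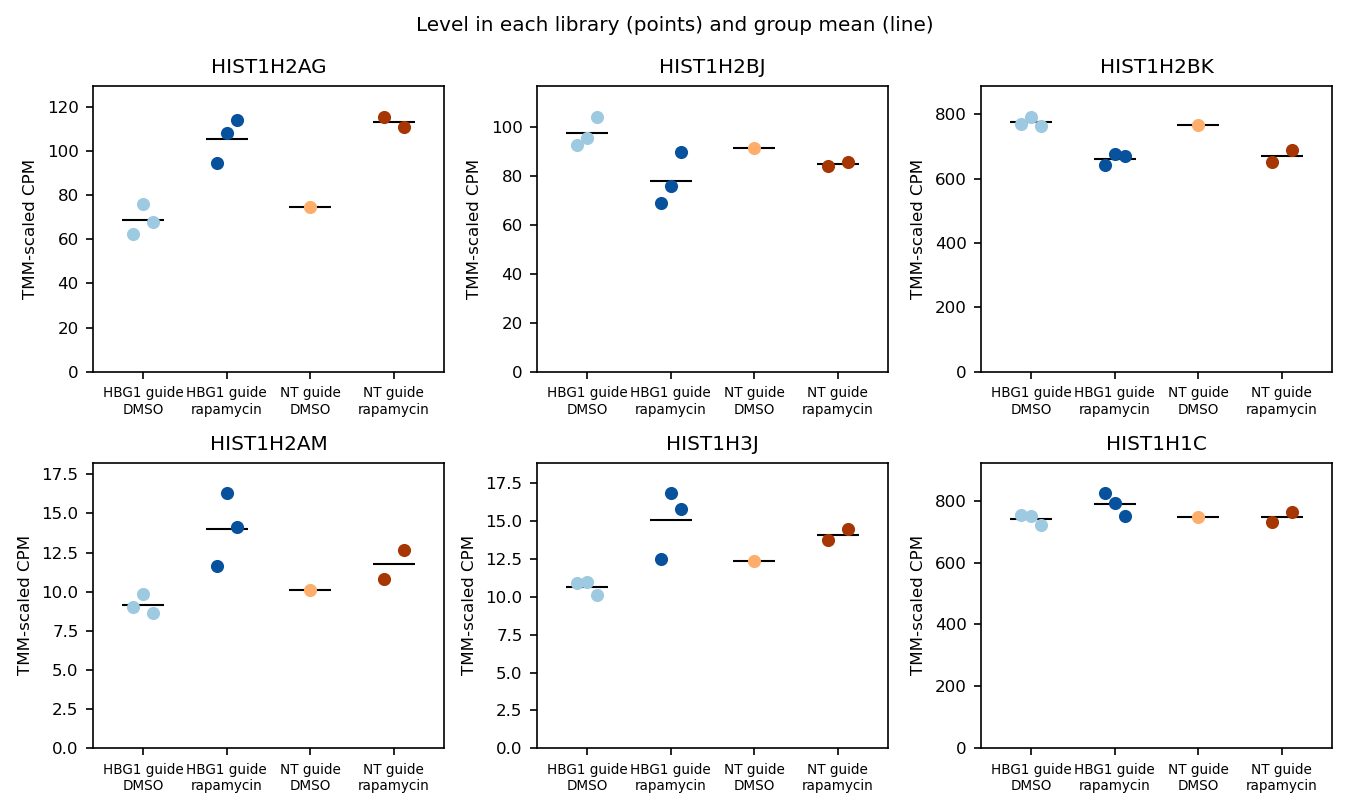
TMM-scaled CPM of 6 histone genes in each of the 9 libraries (points) by guide and treatment, with group means as lines and axes from 0. HIST1H2AG, HIST1H2AM and HIST1H3J lie higher under rapamycin and HIST1H2BJ and HIST1H2BK lower with the HBG1 guide, without overlap, while HIST1H1C overlaps.

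The other abundant members were not called. HIST1H1C was at 755, 751 and 721 CPM under DMSO and 824, 793 and 750 CPM under rapamycin, which overlap (log2 fold change 0.09, SE 0.07, adjusted p 0.489, edgeR). HIST1H4I was at 486, 468 and 417 CPM and then 392, 422 and 414 CPM (-0.16, SE 0.07, adjusted p 0.242). HIST1H3H was at 115, 120 and 121 CPM and then 144, 125 and 140 CPM, without overlap, and did not pass (0.20, SE 0.07, adjusted p 0.119). The copies HIST2H2AA3 and HIST2H2AA4 were also separate, with HIST2H2AA3 at 234, 229 and 207 CPM and then 253, 255 and 241 CPM (0.16, adjusted p 0.204). HIST1H2AC, HIST2H2BE and HIST3H2A had log2 fold changes of 0.04, 0.06 and 0.19, with adjusted p of 0.823, 0.824 and 0.251. In all, 11 members lay wholly above and 4 wholly below their DMSO values. That is 25.4% of members, beside 25.3% of all genes (12.2% above and 13.1% below).

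The HBG1 guide libraries met the limit set for pairing by replicate number, although replicates 2 and 3 were not told apart by it, and a fit with that block called 13 of the 51 members it tested, 11 higher and 2 lower. Of all genes 17.1% were called in that fit, 7.43% higher and 9.62% lower, beside 21.6% and 3.92% of the members. The 9 genes it added were named after their values were seen: HIST1H2BJ as lower, and HIST1H2AK, HIST1H4E, HIST2H3A, HIST2H3C, HIST1H2BN, HIST1H3H, HIST2H2AA3 and HIST2H2AA4 as higher. Among the 11 higher are 2 pairs of copies and 2 pairs of overlapping genes, so they stand for fewer separate signals. Adjusted p (edgeR) ran from 4.33e-06 for HIST1H2AG to 0.0448 for HIST2H2AA4.

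By class, the changes offset each other. Summed H2A was at 888, 922 and 823 CPM under DMSO and 966, 1024 and 1001 CPM under rapamycin. Summed H2B was at 1146, 1218 and 1179 CPM and then 991, 1084 and 1107 CPM. Summed H3 was at 189, 205 and 207 CPM and then 223, 237 and 244 CPM. H2A and H3 were thus higher and H2B lower under rapamycin without overlap, by ratios of means of 1.14, 1.17 and 0.898, while H1 and H4 overlapped.

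The H2B sum was set by a pair of genes. HIST1H2BK and HIST1H2BJ together fell from 864, 889 and 869 CPM to 711, 752 and 759 CPM. The other 15 H2B genes were at 282, 330 and 311 CPM and then 280, 332 and 348 CPM, which overlap. Without HIST1H2AG the other 15 H2A genes were at 826, 846 and 755 CPM and then 872, 916 and 887 CPM, still separate. That sum counts both copies, HIST2H2AA3 and HIST2H2AA4, which were not called without the replicate block. HIST2H2AA3 was at 234, 229 and 207 CPM under DMSO and 253, 255 and 241 CPM under rapamycin. HIST2H2AA4 was at 236, 231 and 208 CPM and then 256, 256 and 243 CPM. A sum without these copies was not made, so the separation does not show a rise across the remaining H2A genes. Without HIST1H3H the other 10 H3 genes were at 74.0, 84.9 and 86.3 CPM and then 78.8, 112 and 104 CPM, which overlap. These sums over chosen genes carry no test.

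**Figure D3:**
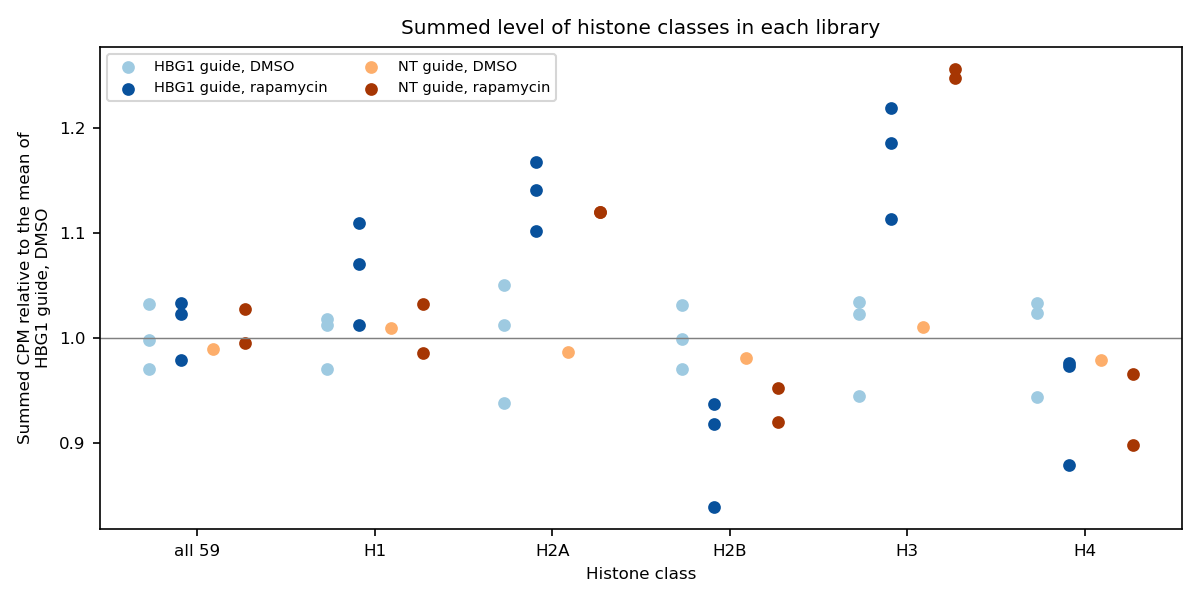
Summed CPM of all 59 histone genes and of each class in each library, divided by the mean of the HBG1 guide DMSO libraries, by guide and treatment. H2A and H3 lie higher and H2B lower under rapamycin with either guide, and the sum of all 59 overlaps with the HBG1 guide.

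Under the non-targeting guide, where a single DMSO library allows no test, most directions were the same. The guides share no library. Among the 29 members with a mean of at least 10 CPM, 22 had the same sign with both guides, and among the 44 with at least 1 CPM, 30 did. Both sets leaned upward, which alone gives many shared signs. Of the 44, 31 lay above 0 with each guide, and of the 29, 21 with the HBG1 guide and 20 with the non-targeting guide. The share of all genes with the same sign was not counted. Across those 29 genes, which share libraries within each guide and are not independent, Pearson's r was 0.56 and Spearman's rho 0.72. Across the 44 genes the values were lower, 0.43 and 0.50. Summed H2A was 866 CPM under DMSO and 982.5 and 982.8 CPM under rapamycin, summed H2B 1158 and then 1087 and 1125 CPM, and summed H3 202 and then 250 and 251 CPM.

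**Figure D4:**
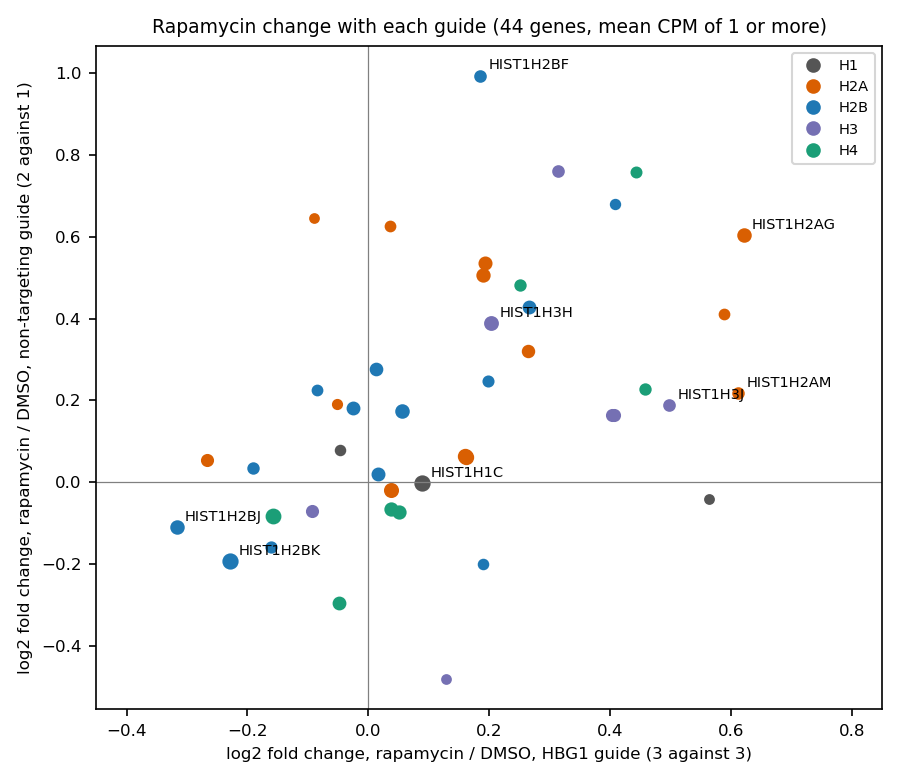
The log2 fold change between rapamycin and DMSO with the HBG1 guide (horizontal) and with the non-targeting guide (vertical) for the 44 histone genes with a mean of at least 1 CPM, coloured by class, with point size rising with level. HIST1H2AG lies at 0.62 and 0.60 and HIST1H2BK at -0.23 and -0.19.

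No histone gene passed a test of the guide. Between guides under rapamycin, 0 of 59 members were called, beside 0.0296% of all genes (0.0169% higher and 0.0127% lower). Before adjustment, 4 members had p under 0.05 (edgeR), which were HIST1H2BF, HIST1H2AI, HIST1H3H and HIST1H2AJ, all lower with the HBG1 guide. These 4 of 59 stand beside 6.27% of all genes, a share near the background, and HIST1H2AI and HIST1H2AJ share sequence. DESeq2 also called 0, and 4 had p under 0.05 before adjustment. For the interaction of guide and rapamycin, 0 of 59 were called, beside 0.00422% of all genes, and before adjustment 1 of 59 had p under 0.05 in edgeR, beside 2.86% of all genes, and 1 in DESeq2. In edgeR that gene was HIST1H2BF, with an interaction of -0.81 (SE 0.30, unadjusted p 0.016). For HIST1H2AG the interaction was 0.02 (SE 0.16). Both tests rest on few libraries, and the spread of the lone non-targeting DMSO library was taken from the other groups.

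Counted by annotated gene span, an H2A gene is read divergently from an H2B gene in 10 cases, with the starts 218 to 330 bases apart. In this arrangement both share the DNA between them. HIST1H2AK and HIST1H2BN are not among the 10, because the annotated span of HIST1H2BN covers HIST1H2AK. Their RefSeq promoter windows overlap on opposite strands (chr6:27838376-27838625 and chr6:27838319-27838568), and both genes were called higher with the replicate block. In 7 of the 10 pairs the 2 genes had log2 fold changes of opposite sign, and in 6 of the 10 the H2A gene had the higher one. In 2 of the 7 both changes were near 0 (0.04 and -0.03 for HIST1H2AC and HIST1H2BC, -0.05 and 0.06 for HIST2H2AC and HIST2H2BE). In another of the 7, HIST1H2AH with HIST1H2BK, the H2A gene was at a mean of only 0.879 CPM. With the non-targeting guide the signs were opposite in 3 of the 10 pairs. The ratio of HIST1H2AG to HIST1H2BJ CPM was 0.671, 0.794 and 0.651 under DMSO and 1.37, 1.43 and 1.27 under rapamycin with the HBG1 guide. With the non-targeting guide it was 0.813 and then 1.37 and 1.29, so rapamycin libraries lay above DMSO libraries throughout. HIST1H2AM to HIST1H2BO went from 0.946, 1.01 and 0.726 to 1.39, 1.53 and 1.71 with the HBG1 guide, and from 0.918 to 1.09 and 1.01 with the other guide. HIST1H2AD to HIST1H2BF moved in the opposite direction, from 2.27, 1.95 and 2.15 to 1.65, 1.47 and 1.52. These pairs were singled out for their difference, so the ratios carry no test.

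**Figure D5:**
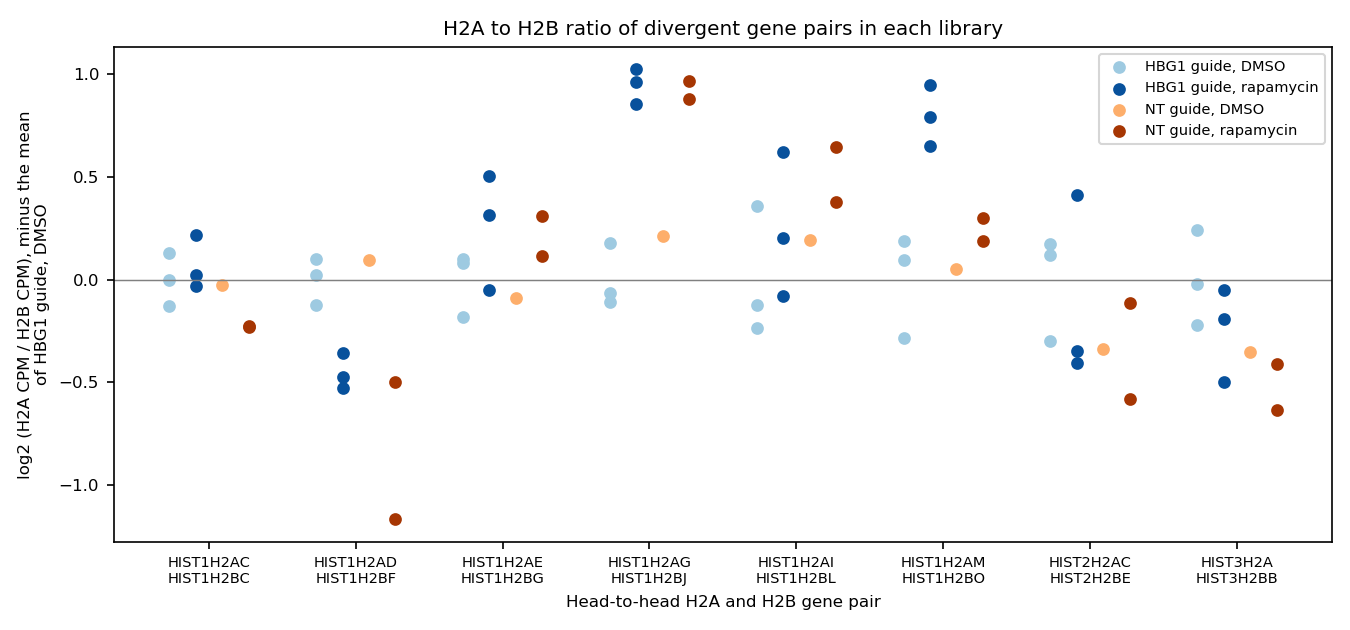
The log2 ratio of H2A to H2B CPM in each library for 8 divergent gene pairs, minus the mean of the HBG1 guide DMSO libraries. They are those of the 10 pairs counted by annotated gene span in which both genes had a mean of at least 1 CPM. The pair of HIST1H2AG and HIST1H2BJ is separated by treatment with both guides, and that of HIST1H2AD and HIST1H2BF lies lower under rapamycin.

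The promoters of these genes are shown because a divergent pair with opposite changes shares one. A RefSeq promoter (GRCh38.p14) was matched for 56 of 59 members, and the 250 bases before the start were searched on both strands. Capitals mark CCAAT or its complement ATTGG, the octamer ATTTGCAT or its complement ATGCAAAT, and TATAAA or its complement TTTATA, where the last 2 can overlap. The first window lies at chr6:27132793-27133042 on the plus strand, the second at chr6:27146856-27147105 and the third at chr6:27893186-27893435, both on the minus strand.
HIST1H2AG: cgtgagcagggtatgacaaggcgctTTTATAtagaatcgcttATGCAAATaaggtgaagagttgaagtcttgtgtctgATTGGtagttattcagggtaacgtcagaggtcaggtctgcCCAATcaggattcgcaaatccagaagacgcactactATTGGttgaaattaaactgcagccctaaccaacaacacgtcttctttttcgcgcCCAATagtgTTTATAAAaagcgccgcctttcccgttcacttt
HIST1H2BK: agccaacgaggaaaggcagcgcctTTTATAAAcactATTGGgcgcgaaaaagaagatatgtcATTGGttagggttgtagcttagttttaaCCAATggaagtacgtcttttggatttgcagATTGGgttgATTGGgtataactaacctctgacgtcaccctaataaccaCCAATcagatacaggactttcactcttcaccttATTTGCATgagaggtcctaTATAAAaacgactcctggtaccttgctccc
HIST1H2AM: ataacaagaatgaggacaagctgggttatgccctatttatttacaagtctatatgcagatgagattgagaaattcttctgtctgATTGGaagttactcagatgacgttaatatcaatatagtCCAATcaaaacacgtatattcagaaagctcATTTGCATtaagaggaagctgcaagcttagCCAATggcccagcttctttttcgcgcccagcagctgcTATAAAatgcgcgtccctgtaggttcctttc
The HIST1H2BJ window shares 247 of its 250 bases with that of HIST1H2AG, read from the other strand, and so holds the same motifs. HIST1H2BK, which fell, and HIST1H2AG, which rose, both have the octamer and more than 1 CCAAT and TATAAA match. Over the members, CCAAT was in 48 of 56 windows (85.7%, beside 32% of 35116 RefSeq promoters), TATAAA in 38 (67.9%, beside 10.7%) and the octamer in 23 (41.1%, beside 1.63%). The octamer was in 10 of 15 H2A and 13 of 17 H2B windows and in no H1, H3 or H4 window. CCAAT was in every H1, H2A, H2B and H3 window and in 1 of 9 H4 windows.

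Genes that process histone mRNA were read from a list of 17. Between rapamycin and DMSO with the HBG1 guide, 1 was called higher and 3 lower (23.5% of the list, beside the 6.80% of all genes), and the median log2 change was -0.17, beside 0.02 over all genes. SLBP, which binds the stem-loop, was at 179, 164 and 175 CPM under DMSO and 129, 126 and 127 CPM under rapamycin, without overlap (-0.44, SE 0.07, adjusted p 0.00139, edgeR). The non-targeting libraries had 159 and then 121 and 121 CPM. LSM10, a subunit of the U7 snRNP, and SRRT, which links the cap-binding complex to RNA processing, were lower too (-0.42, adjusted p 0.0316, and -0.26, 0.0335). MIF4GD, an SLBP partner in translation, was higher (0.37, adjusted p 0.0443). NPAT, the coactivator of histone gene transcription, was at 34.5, 37.2 and 35.7 CPM and then 34.1, 37.1 and 36.7 CPM (0.01, adjusted p 0.98). The part of SLBP in the histone values was not tested.

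Replacement histones are made outside S phase too, from polyadenylated mRNA. Of 10 tested, 1 was higher and 1 lower (20% of those tested, beside 6.80% of all genes). They were the genes of the same protein, H3.3: H3F3A went from 648, 555 and 546 CPM to 799, 674 and 736 CPM (0.34, adjusted p 0.0204, edgeR) and H3F3B from 381, 395 and 415 CPM to 324, 319 and 323 CPM (-0.30, adjusted p 0.0198). H2AFZ, which encodes H2A.Z, did not pass (-0.19, adjusted p 0.225).

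Histone chaperones and S phase genes were read beside the 2.75% of all genes called higher and 4.05% called lower. Of 22 chaperones and importers, 1 was called higher and 3 lower, with a median of -0.14. They were NAP1L1 (0.24, adjusted p 0.0394, edgeR), an H2A and H2B chaperone, IPO4 (-0.53, 0.00276), an importer of H3 and H4, and the FACT subunits SUPT16H (-0.31, 0.0122) and SSRP1 (-0.24, 0.0414). Of 26 S phase genes, 0 were called higher and 3 lower, with a median of -0.13: the phosphatase CDC25A (-0.45, adjusted p 0.00946) and the helicase subunits MCM3 (-0.29, 0.0257) and MCM4 (-0.25, 0.0316). With the replicate block, which called 7.43% of all genes higher and 9.62% lower, the S phase counts became 1 higher and 11 lower, those of the chaperones 1 and 9, and those of the 17 histone mRNA processing genes 1 and 6. Their part in the histone values was not tested.

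RNAs without a poly(A) tail, which the poly-T selection is meant to remove, overlapped between the treatments with the HBG1 guide. The 15 listed summed to 39.0, 48.3 and 144 CPM under DMSO and 43.1, 39.8 and 106 CPM under rapamycin with the HBG1 guide, and to 168 and then 108 and 123 CPM with the non-targeting guide. Nearly all of it was RN7SL1 and RN7SL2. Of the 7 tested, 0 were called, with 0 also under the replicate block. Their part in the histone values was not tested.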

How the data were processed

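The authors deposited raw read counts, 1 column for each of 9 libraries and 1 row per Ensembl ID. Per the submitters' processing notes, STAR 2.7.3a and featureCounts of Subread 2.0.0 were used with GRCh38. Strand setting and treatment of multi-mapped reads are not given in the sources used here. Per the labels' protocols, libraries were made from poly-T selected RNA.

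Symbols, positions and exon lengths came from GENCODE 29, which held 58039 of 58347 IDs. Counts were fitted with edgeR 4.0.16 in R 4.3.3 (filterByExpr at its minimum count of 10, TMM, glmQLFit and glmQLFTest on all 9 libraries with 1 mean per group), with Benjamini-Hochberg adjustment over 23675 genes and calls at 0.05. SE is the log2 fold change over the square root of F. Simulated data (200 genes changed 4-fold, 22605 genes) gave 189 recovered and 6 false calls. These changes were larger than those of the called members, and no replicate effect was simulated. Recovery of changes of the size reported here was therefore not measured. Same-numbered HBG1 guide libraries deviated together (correlations 0.55, 0.277 and 0.235 over 11668 genes), which meets the limit of 0.1 set for pairing, from the data and not the labels. Replicates 2 and 3 were not told apart by number (0.254 and 0.19 across numbers), and replicate 1 stood apart. Named genes are the 10 most abundant members, the leaders of each class and cluster, called members, and, of the lists, SLBP, NPAT, H2AFZ and up to 3 called genes in each direction. Members and lists were chosen with earlier results of these data known. Alternatives were DESeq2 1.42.0, other scalings, no filter, fewer samples and the replicate block. Replicates differed by more than sampling noise (4.58 or more chi-square units per gene). The level of the lymphoid and myeloid marker list is not reported here.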

Additional observations from a re-analysis of the deposited data

Results flagged for a closer look

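HIST1H1D, a linker histone gene at a mean of 0.673 CPM, drew attention because its log2 change under rapamycin went down in 3 of 3 replicate pairs with the HBG1 guide and up in both libraries with the non-targeting guide. The counts were 21, 22 and 17 under DMSO and 12, 14 and 22 under rapamycin with the HBG1 guide. In CPM these were 0.680, 0.768 and 0.836 and then 0.619, 0.665 and 0.715, which overlap. The fall in pair 3 is thus seen only after scaling to library size. With the non-targeting guide the counts were 10 under DMSO and 18 and 14 under rapamycin. The difference between the guides was -0.83 on the log2 scale (SE 0.92), with an unadjusted p of 0.381 and an adjusted p of 1 (edgeR quasi-likelihood test), and so did not pass.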

How the results depend on the processing

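The count of called members between rapamycin and DMSO with the HBG1 guide was 4. It was 7 with no filter on low counts, 2 when only the 6 libraries compared were fitted, 13 with the replicate block on the paired libraries, and 1 to 6 when single libraries were left out: 1 without HBG1 guide DMSO replicate 2 or 3 or rapamycin replicate 2, and 2 without rapamycin replicate 3 or either non-targeting rapamycin library. Over all genes, the block called 17.1%. With the HBG1 guide, the fits without DMSO replicate 2 or 3 called 2.85% and 3.17% of all genes. Those without rapamycin replicate 1, 2 or 3 called 7.36%, 4.98% and 2.98%, with 6, 1 and 2 members among them. Without non-targeting rapamycin replicate 1 or 2 the shares were 5.83% and 5.71%. The main fit called 6.80%. The fit with no filter called 5.65% of all genes, and that of only the 6 libraries, with 51 members tested, 6.82%. Without replicate 1 of both HBG1 guide groups the count of called members was 6, beside 9.09% of all genes. With 1 row of each pair of copies it was 4, beside 6.8%. Both settings were chosen after seeing the data. DESeq2 called 5 of the 44 members it gave an adjusted p, beside 13.1% of all genes. The counts of 0 between guides and in the interaction were 0 under every alternative run, the replicate block included. The 13 named members kept their direction except 2 near 0: HIST1H2AC (-0.0036 without DMSO replicate 3, up to 0.093 without DMSO replicate 2) and HIST2H2BE (-0.038 without DMSO replicate 1 and -0.025 without rapamycin replicate 3, up to 0.17 without rapamycin replicate 1). Depth limits the 15 members below 1 CPM, whose standard errors are 0.465 or more.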

Other observations

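Along the HIST1 cluster, the 14 members from HIST1H2BL to HIST1H2BO had a median log2 fold change of 0.23 between rapamycin and DMSO with the HBG1 guide, with 11 above 0 and 3 below. Of these, 6 lay wholly above their DMSO values and 0 below, beside 12.2% above and 13.1% below over all genes. The 26 members from HIST1H3A to HIST1H4H had a median of 0.06, with 1 wholly above and 2 below. The 5 members between these stretches, from HIST1H2BJ to HIST1H2AH, had a median of -0.16, with 1 wholly above and 2 below. The 14 include HIST1H2AM with HIST1H3J and HIST1H2BN with HIST1H2AK and HIST1H2AL, which overlap, and HIST1H4J with HIST1H4K and HIST1H2AI with HIST1H2AJ, which share sequence. HIST1H4J and HIST1H4K are 2 of the 6 wholly above, and HIST1H2AM and HIST1H3J are another 2, so the 6 stand for fewer separate signals. The stretches were chosen after the values were seen, so no test was made. With the non-targeting guide the medians of the 14, 26 and 5 members were 0.42, 0.20 and -0.08.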
